A study of Homo sapiens with 12 samples.

Results

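Of 1329 REXO4 peaks considered in human U2OS cells, 308 (23.2%) met both of the following conditions. They shared 1 bp or more with a peak of RNaseH1, and their summit lay more than 1 kb from both ends of every protein-coding and lncRNA gene. They are called shared distal peaks here. They were chosen by position alone, in the authors' 2 deposited peak lists, 1460 REXO4 peaks and 54623 RNaseH1 peaks in all, on chromosomes 1 to 22 and X without chromosome 21 below 9 Mb. The overlap with RNaseH1 and the distance from gene ends are therefore the selection and not a finding. Another 642 REXO4 peaks were shared but lay at gene ends, 265 were distal without an RNaseH1 peak, and 114 lay at gene ends without one. Sharing with RNaseH1 was found for 53.8% of distal REXO4 peaks, 84.9% of those at gene ends and 71.5% of all considered. The 308 peaks overlapped 313 RNaseH1 peaks. Among all 36316 distal RNaseH1 peaks, 0.878% overlapped a REXO4 peak.

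The cells came from a human osteosarcoma line, and the assay was chromatin immunoprecipitation with sequencing (ChIP-seq) through a Flag tag. A tet-on transgene supplied either REXO4-D386A or RNaseH1-D210N, both nuclease-dead forms, and each line was grown with doxycycline at 1 µg/ml or without it for about 60 h. Each of the 4 line and dose combinations had 2 ChIP libraries and 1 input library, 12 libraries in 8 groups. The labels do not say whether a line is a single clone, and both lines keep their own REXO4 and RNaseH1 genes as far as the labels tell. Every value below comes from 1 list per protein. No value per library was analysed here, so the spread between replicates, the effect of doxycycline and the total depth were not assessed, and no difference below was tested over samples.

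R-loops are stretches where an RNA strand pairs with 1 DNA strand and leaves the other strand single. RNase H1 cuts the RNA of such RNA-DNA hybrids, and a form that cannot cut stays bound and is used to map them. REXO4 belongs to a family of exonucleases, enzymes that shorten nucleic acids from an end. R-loops are known at the starts of genes with G-rich, CpG-rich sequence, at gene ends and at heavily transcribed noncoding genes such as the rRNA and tRNA genes, which RNA polymerase III transcribes in the case of 5S rRNA and tRNAs.

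Many genes have alternative starts inside their body. Annotated starts were a common setting of the shared distal peaks. Whether each is the main or an alternative start of its gene was not analysed here. Some summits at starts lay just beyond the 1 kb limit, with the nearest gene end 1007 bp away at ARSB and 1010 bp at ROCK2. Of 297 peaks, 58 (19.5%) overlapped the 300-base window around a start annotated by RefSeq in GRCh38.p14, from 250 bases before it to 50 after it. The same was found for 4.38% of 251 unshared distal REXO4 peaks and 3.46% of 34074 distal RNaseH1 peaks without REXO4. The windows of 6 of the 58 are printed 5′ to 3′ in the direction of transcription, with runs of 4 or more G in capitals, since G-rich sequence on the strand like the RNA is a known feature of R-loop regions. The first 4 had the lowest q of the 58, LOC101928447 is a lncRNA gene whose REXO4 summit lay 2 bp past the start, and STK32B had the fewest expected fragments. The window of SYNDIG1L lies at chr14:74426161-74426460 on the minus strand, ZNF362 at chr1:33256242-33256541 on the plus strand and ZBTB46 at chr20:63831215-63831514 on the minus strand. SP3 lies at chr2:173963831-173964130 on the minus strand, LOC101928447 at chr17:76121504-76121803 on the minus strand and STK32B at chr4:5051230-5051529 on the plus strand.
SYNDIG1L: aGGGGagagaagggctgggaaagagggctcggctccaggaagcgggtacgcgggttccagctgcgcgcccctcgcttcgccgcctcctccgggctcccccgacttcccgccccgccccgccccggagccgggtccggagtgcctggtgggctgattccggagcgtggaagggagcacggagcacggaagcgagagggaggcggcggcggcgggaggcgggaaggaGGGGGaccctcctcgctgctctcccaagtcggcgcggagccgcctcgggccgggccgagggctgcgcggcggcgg
ZNF362: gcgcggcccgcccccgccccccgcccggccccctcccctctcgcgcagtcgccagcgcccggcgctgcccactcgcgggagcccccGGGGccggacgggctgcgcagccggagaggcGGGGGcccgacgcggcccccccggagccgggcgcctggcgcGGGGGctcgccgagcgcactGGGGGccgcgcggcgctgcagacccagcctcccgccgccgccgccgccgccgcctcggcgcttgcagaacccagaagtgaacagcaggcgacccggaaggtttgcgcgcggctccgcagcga
ZBTB46: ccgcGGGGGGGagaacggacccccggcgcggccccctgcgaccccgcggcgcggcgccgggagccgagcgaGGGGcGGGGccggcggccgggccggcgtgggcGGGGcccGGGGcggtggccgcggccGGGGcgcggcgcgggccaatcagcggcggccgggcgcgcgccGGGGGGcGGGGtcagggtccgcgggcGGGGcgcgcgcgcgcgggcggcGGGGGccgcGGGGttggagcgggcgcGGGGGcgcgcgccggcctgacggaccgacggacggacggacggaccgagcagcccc
SP3: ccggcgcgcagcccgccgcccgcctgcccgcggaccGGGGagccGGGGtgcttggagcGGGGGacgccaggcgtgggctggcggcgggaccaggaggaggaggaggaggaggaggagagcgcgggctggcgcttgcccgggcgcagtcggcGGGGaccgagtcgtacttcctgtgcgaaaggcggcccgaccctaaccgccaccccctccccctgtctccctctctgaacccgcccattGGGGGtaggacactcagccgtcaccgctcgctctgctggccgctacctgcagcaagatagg
LOC101928447: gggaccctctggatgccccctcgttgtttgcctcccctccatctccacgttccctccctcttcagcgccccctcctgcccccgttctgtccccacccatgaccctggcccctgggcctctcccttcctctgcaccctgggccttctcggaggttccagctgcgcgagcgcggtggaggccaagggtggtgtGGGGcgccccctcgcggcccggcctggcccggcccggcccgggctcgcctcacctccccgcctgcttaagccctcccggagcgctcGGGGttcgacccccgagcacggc
STK32B: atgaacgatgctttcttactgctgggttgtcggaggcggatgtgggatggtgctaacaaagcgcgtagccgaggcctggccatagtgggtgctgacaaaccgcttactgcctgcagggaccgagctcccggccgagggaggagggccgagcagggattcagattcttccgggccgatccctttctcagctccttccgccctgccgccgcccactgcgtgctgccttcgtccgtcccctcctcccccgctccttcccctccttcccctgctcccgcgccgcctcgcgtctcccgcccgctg

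Counted by the summit, 83 of 297 shared distal peaks (27.9%, exact 95% binomial interval 22.9 to 33.4%) had their summit within 1 kb of an annotated start. Starts of chromosome 8 were not used here, which left out 11 of the 308 peaks, and the start table covers 75.2% of protein-coding and lncRNA genes on the other chromosomes. The same measure gave 5.58% of 251 unshared distal REXO4 peaks (14 peaks) and 4.67% of 34074 distal RNaseH1 peaks without REXO4 (1591 peaks). At gene ends it gave 76.5% of 613 shared REXO4 peaks, where the start of the gene is mostly the boundary itself. Neighbouring peaks are not independent, and the intervals of shares cover counting error only.

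The printed windows differ in their G runs. ZBTB46 has 12 such runs and 4 runs of C, SP3 has 5 and 2, ZNF362 has 4 and 6, SYNDIG1L has 2 and 5, LOC101928447 has 2 and 9, and STK32B has no G run and 4 runs of C. GGGG on either strand was found in all 58 windows (100%), against 98.7% of 1176 windows overlapped by distal RNaseH1 peaks without REXO4, 87.9% of 5391 windows of distal starts and 89.6% of all 35116 windows. Windows at shared REXO4 peaks at gene ends also had it in 100%. On the printed strand GGGG was in 93.1% of the 58 windows and CCCC, its complement on the other strand, in 93.1% as well. Those 2 shares were 95.7% and 94.8% at shared REXO4 peaks at gene ends. They were 92.2% and 87.9% at distal RNaseH1 peaks without REXO4, and 75.1% and 73.6% over all windows. The median number of runs in the 58 windows was 5 of G and 4 of C. TATAAA on the printed strand was in 0% of the 58 windows, against 2.3% of windows at shared REXO4 peaks at gene ends, 2.13% of windows at distal RNaseH1 peaks without REXO4, 8.16% of windows of distal starts and 7.33% of all windows. The absence of these letters says only that they are not in these windows.

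The 58 windows held a median GC content of 77.5% (interquartile range 73.2 to 81%) and 40 CG dinucleotides. Windows at distal RNaseH1 peaks without REXO4 held 68.3% GC and 27 CG, and windows of all distal starts held 54% GC and 7 CG. Windows overlapped by the 348 shared REXO4 peaks at gene ends were close to the 58, with 78% GC and 43.5 CG. The lowest GC content of the 6 printed windows was that of STK32B, at 66.7%, and the highest that of ZBTB46, at 89.7%.

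At most of these 58 starts each protein peaked on the transcribed side. The summit lay before the start at 15 for REXO4 and at 16 for RNaseH1. The REXO4 summit lay past the start at 43 (74.1%), with a median of 110 bp, and the RNaseH1 summit at 42 (72.4%), with a median of 112.5 bp. Both lay past it at 37. The REXO4 summit was farther along than the RNaseH1 summit at 21 of the 58. Shared REXO4 peaks at gene ends had 69.3% of summits past the start, with a median of 91.5 bp, and distal RNaseH1 peaks without REXO4 had 65.3%, with a median of 72 bp. Of the 11 unshared distal REXO4 peaks at a start window, 4 had the summit past it.

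**Figure D1:**
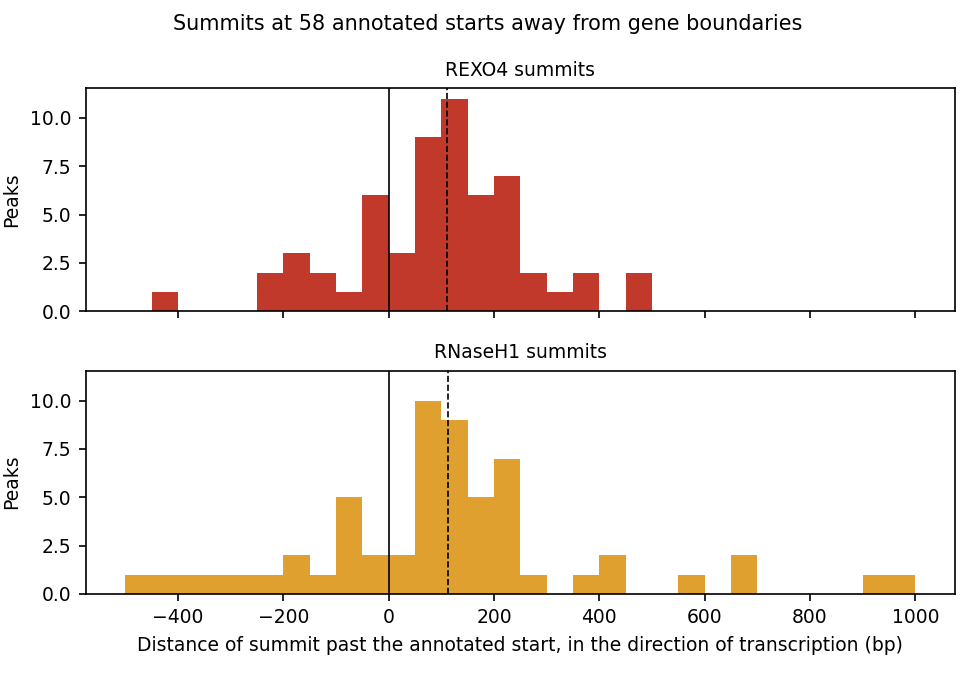
Position of the REXO4 summit (upper panel) and of the nearest RNaseH1 summit (lower panel) relative to the annotated start, in bp along the direction of transcription, for the 58 shared distal peaks that overlap a start window. Bars are counts of peaks in 50 bp steps, with values outside the axis drawn in the end bins, the solid line is the start and the dashed line is the median, 110 bp for REXO4 and 112.5 bp for RNaseH1.

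The strongest of these peaks by q was in SYNDIG1L, which encodes a relative of a synapse protein, at chr14:74425869-74426330. REXO4 had 331 fragments at its summit against 137 expected, a fold enrichment of 2.41 (95% interval 2.16 to 2.68), and RNaseH1 had a fold of 2.45 (2.11 to 2.83). The expected number is the background pileup that the peak caller took at that place, and the intervals are exact Poisson intervals of the fragments, counting error only. The nearest gene end is 20164 bp from its summit. ZNF362, a zinc finger gene, had a REXO4 fold of 2.82 (2.44 to 3.25) at chr1:33256529-33256950, where the nearest gene end is 43985 bp away. ZBTB46, a transcription factor of classical dendritic cells, had the highest REXO4 fold of the 58, 4.10 (3.31 to 5.03), from 90 fragments against 21.2 expected at chr20:63830696-63831368. SP3, a factor that binds GC boxes, had a fold of 2.49 (2.12 to 2.91) at chr2:173963562-173963858. The intervals of ZBTB46 and SP3 do not overlap, whereas those of ZNF362 and SP3 do.

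Further starts, chosen after their values were seen, lay in genes of several kinds. PHF19, a Polycomb-associated protein, had a REXO4 fold of 2.52, CDYL, a chromodomain corepressor, 2.17, ZFPM1, a partner of GATA factors, 1.96, and TCF7L2, the Wnt pathway factor, 2.55. TGFBR1, a receptor kinase of TGF-β, had 1.99, and ELF2, an ETS factor, had 2.48 beside the highest RNaseH1 fold of the 58, 6.16 (5.05 to 7.44). TCF7L2 differed from the rest in its sequence, with 42.7% GC and 7 CG in the window. At the low end, VPS37D, an ESCRT subunit, had a fold of 1.47 (1.22 to 1.75) from 122 fragments against 82.8 expected, and CCDC149 had 1.48 (1.24 to 1.75).

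The start share moved with the number of expected fragments, the peak caller's local background. Shared distal peaks with 30 or more expected REXO4 fragments lay near a start in 43.4% (66 of 152, interval 35.4 to 51.7%). Those with 10 to 30 did so in 15.5% (15 of 97, 8.92 to 24.2%), and those with under 10 in 4.17% (2 of 48, 0.509 to 14.3%). In the same 3 ranges, from high to low, unshared distal REXO4 peaks gave 8.33% (1 of 12, 0.211 to 38.5%), 5% (2 of 40, 0.611 to 16.9%) and 5.56% (11 of 198, 2.81 to 9.72%). The highest range holds only 12 unshared distal peaks. In the lowest range, which holds most unshared distal peaks, the 2 shares were close, and the difference within ranges was not tested.

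Against RNaseH1 peaks without REXO4, the match can be made on the expected RNaseH1 fragments. Shared distal peaks whose RNaseH1 peak had 30 or more expected fragments lay near a start in 50% (39 of 78, interval 38.5 to 61.5%), against 39% (370 of 949, 35.9 to 42.2%) of the distal RNaseH1 peaks without REXO4. Between 10 and 30 the shares were 27.3% (38 of 139, 20.1 to 35.5%) and 14.4% (811 of 5625, 13.5 to 15.4%). Under 10 they were 7.5% (6 of 80, 2.80 to 15.6%) and 1.49% (410 of 27500, 1.35 to 1.64%). The intervals overlap in the highest range and are apart in the 2 lower ones. Most distal RNaseH1 peaks without REXO4 fall in the lowest range, and the part of expected fragments in the difference over all peaks was not tested further.

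**Figure D2:**
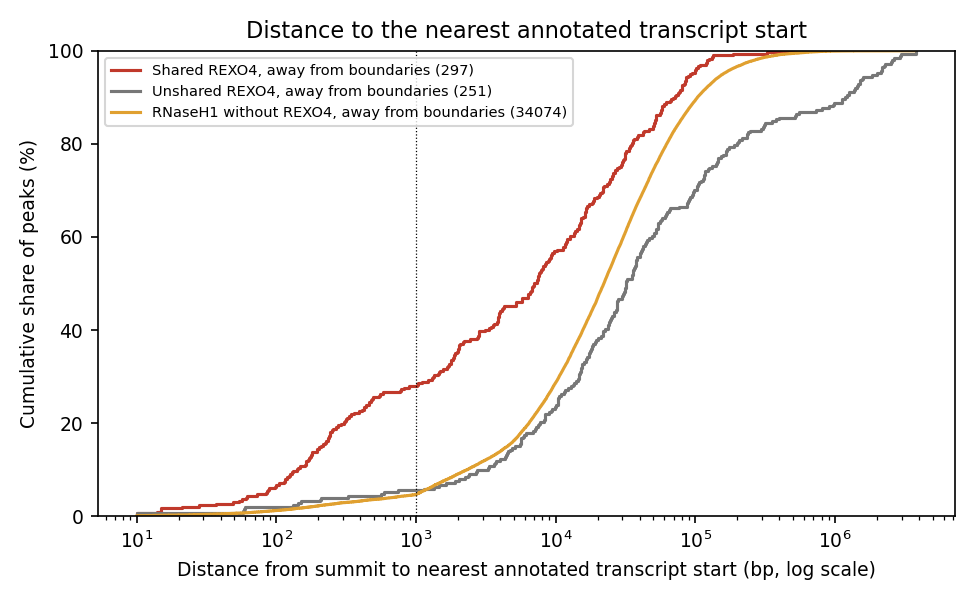
Cumulative share of peaks, in %, by the distance in bp (log scale) from the summit to the nearest annotated transcript start, for shared distal REXO4 peaks (red, 297), unshared distal REXO4 peaks (grey, 251) and distal RNaseH1 peaks without REXO4 (yellow, 34074), with distances under 10 bp drawn at 10 bp and without chromosome 8. At the dotted line, 1 kb, the red curve stands at 27.9%, the grey at 5.58% and the yellow at 4.67%.

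The most significant shared distal peaks lay in a tRNA gene cluster rather than at starts of RNA polymerase II genes. A cluster of 24 tRNA genes at chr1:161440171-161480636 held 9 of the 308 peaks, 2.92% against 0.752% of all REXO4 peaks considered and 0.617% of distal RNaseH1 peaks. The share over all REXO4 peaks rests on 10 peaks and includes these 9. No unshared distal REXO4 peak lay within 1 kb of a tRNA gene, and 0.156% of shared REXO4 peaks at gene ends did. In this cluster sets of tRNA genes repeat, and the REXO4 peaks repeat with them. Of the peaks, 5 lay nearest to the leucine tRNA genes TRL-CAG1-1 to TRL-CAG1-5 and 4 nearest to the glycine tRNA genes TRG-TCC2-2 to TRG-TCC2-5. The 2 summits of a pair were 1008 to 1080 bp apart, and the first summits of neighbouring pairs were 7337 to 7421 bp apart.

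The peaks nearest to the leucine tRNA genes had the higher REXO4 folds. Each peak is named here by its nearest tRNA gene, and the peak named by TRL-CAG1-1 does not overlap that gene. TRL-CAG1-1 had 3.66 (3.20 to 4.17), TRL-CAG1-2 2.44 (2.19 to 2.70), TRL-CAG1-3 2.86 (2.57 to 3.17), TRL-CAG1-4 3.14 (2.82 to 3.49) and TRL-CAG1-5 3.03 (2.72 to 3.37). The peaks nearest to the glycine tRNA genes TRG-TCC2-2, TRG-TCC2-3, TRG-TCC2-4 and TRG-TCC2-5 had 2.13 (1.96 to 2.32), 2.12 (1.94 to 2.30), 2.23 (2.04 to 2.44) and 1.96 (1.78 to 2.15) in that order. In point estimates the lowest leucine peak lay above the highest glycine peak, but their intervals overlap. Expected fragments ran the other way, 218 to 258 at the glycine peaks and 61.3 to 144 at the leucine peaks.

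The RNaseH1 peaks of the cluster were wider and fewer. The 9 REXO4 peaks overlapped 5 RNaseH1 peaks, which had folds of 4.06 to 7.04 and widths of 1325 to 4528 bp, against 463 to 903 bp for REXO4. The RNaseH1 summits lay 0 to 28 bp from a tRNA gene (median 0 bp), and the REXO4 summits lay 65 to 255 bp from one (median 150 bp). The summits of the 2 proteins were 394 to 1575 bp apart, the widest gaps of any setting by the median, 565 bp. Of the 24 genes, 8 overlapped a REXO4 peak and 22 an RNaseH1 peak. Over all 429 tRNA genes, 18 (4.2%) had a shared distal peak within 1 kb, all in this cluster, and 251 (58.5%) had a distal RNaseH1 peak.

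A second array on the same chromosome, the 17 genes of 5S ribosomal RNA at chr1:228610266-228646158, held 10 of the shared distal peaks, 3.25% against 0.828% of all REXO4 peaks considered. The genes stand a median of 2241 bp apart. The array held 11 REXO4 peaks in all, 1 of which lay at a gene end. The share over all REXO4 peaks likewise rests on 11 peaks and includes these 10. The 10 shared distal peaks were listed at RNA5S1, RNA5S2, RNA5S3, RNA5S5, RNA5S7, RNA5S8, RNA5S9, RNA5S11, RNA5S13 and RNA5S15. Their REXO4 folds lay between 1.81 at RNA5S5 and 2.43 at RNA5S1, and 177 to 317 fragments stood behind each. RNaseH1 folds at the same peaks ran from 5.52 to 7.94. RNaseH1 peaks overlapped all 17 genes, REXO4 peaks 7 of them and the shared distal peaks 6. Each peak is listed at its nearest gene, and those listed at RNA5S1 and RNA5S5 do not overlap that gene. Of the 8 shared distal peaks with the highest RNaseH1 fold, 7 lay in this array.

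Within the 5S repeat the summits held a narrow position. The REXO4 summit lay 168 to 304 bp (median 232) above the gene's lower coordinate, and the RNaseH1 summit 103 to 303 bp (median 155.5), where the gene itself is 121 bp long. In each of the 10 repeats the REXO4 summit lay at the higher coordinate, by 126 bp at RNA5S1 and by 1 bp at RNA5S15. The gene table gives no strand, so these are positions by coordinate. Copies of the tRNA set and of the 5S gene are nearly identical, and how the submitters' alignment placed reads that match several copies was not analysed here. The peaks at single copies are therefore uncertain, and the repeats are not independent replicates.

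Beyond starts and arrays, 133 shared distal peaks lay deeper inside a protein-coding or lncRNA gene and 73 outside any, counting the 11 of chromosome 8 by gene alone. Of all 308, 196 (63.6%) had the summit in a protein-coding gene, 20 (6.49%) in a lncRNA gene only and 92 (29.9%) in neither. Unshared distal REXO4 peaks gave 48.7%, 5.66% and 45.7%, and distal RNaseH1 peaks without REXO4 gave 54.9%, 8.51% and 36.6%. The hosts numbered 211 genes, of which 4 held more than 1 peak. The 193 protein-coding hosts had a median length of 74.0 kb, against 24.5 kb for all protein-coding genes, and a short gene has little or no sequence over 1 kb from both its ends.

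Inside their hosts most of the peaks lay in the 5′ part. For 182 peaks the strand of the host was known. Of these, 64.3% lay before the midpoint, 33.5% within 5 kb of the 5′ end and 14.8% within 5 kb of the 3′ end. Unshared distal REXO4 peaks gave 50%, 12% and 8.33% over 108 peaks, and distal RNaseH1 peaks without REXO4 gave 51.6%, 13% and 12.1% over 17804. The shared distal peaks thus had the highest share near either end. Peaks near annotated starts were not set apart here, and the groups were not matched by host length or expected fragments. A shared REXO4 peak at the host's own end was found for 8 of the 211 hosts (3.79%), against 2.13% of all such genes.

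The strongest of the deeper peaks by q lay in SHANK1, a scaffold of the postsynaptic density, at chr19:50694963-50695400, 24627 bp from the nearest gene end. REXO4 had 222 fragments against 83.3 expected there, a fold of 2.64 (2.31 to 3.01), and RNaseH1 had 2.24. ZNF710, a zinc finger gene, had a REXO4 fold of 3.10 (2.62 to 3.64), and HIVEP1, a zinc finger factor that binds enhancer motifs, had 2.93 (2.43 to 3.5). DAGLB, a lipase that makes the endocannabinoid 2-AG, had 3.84 (2.99 to 4.85), with RNaseH1 at 4.44 and summits 15 bp apart. SRC, the tyrosine kinase, had 3.87 (2.86 to 5.13) and BAZ2A, a protein that silences rRNA genes, 2.59 (2.1 to 3.16). The peak in YY1, a zinc finger factor, had the widest gap between the summits of the 2 proteins, 1986 bp.

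KMT2C, an H3K4 methyltransferase, held the intragenic peak with the highest REXO4 fold, 5.55 (3.89 to 7.69), from 34 fragments against 5.31 expected at chr7:152366678-152367039. The same site carries the pseudogene SEPTIN7P6, so reads there may also match the parent gene. NARS2, the mitochondrial asparaginyl-tRNA synthetase, had 4.80 (2.77 to 7.84), IL17D, a cytokine, 4.59 (3.67 to 5.67), NOVA2, a neuronal splicing factor, 4.53 (3.16 to 6.31) and BCAR3, an adaptor protein, 4.30 (2.61 to 6.74). The lncRNA gene LOC124900272 had 4.38 (2.82 to 6.54). Of these, the peak of IL17D lay within 1 kb of an annotated start and had the highest fold of that setting. It rested on 84 fragments and the others on 14 to 34, and the 6 intervals overlap one another.

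The gene with the most shared distal peaks was the lncRNA gene CYKILR, with 3 in 52208 bp, at REXO4 folds of 1.76, 2.25 and 1.93. Their RNaseH1 folds, 2.23, 1.62 and 1.68, were in the lower part of the range, and 1.62 was the lowest of all 308. ELF2, HIVEP3 and ZFPM1 had 2 peaks each. The second peak of ELF2 lay at the pseudogene PPP1R14BP3 with a fold of 3.94 (2.66 to 5.63), and the second of ZFPM1 had 1.81 (1.59 to 2.06). The widest peak, 1137 bp, lay at an internal start of AGAP3, an Arf GTPase-activating protein, with a fold of 1.93 (1.57 to 2.34). Other wide peaks were those of ARSB, an arylsulfatase, at 811 bp and of EML1, a microtubule-binding protein, at 718 bp, with folds of 1.58 and 1.86.

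Outside genes, the peak with the highest REXO4 fold of all 308 lay at chr17:26534495-26534800, 463491 bp from the nearest gene end, which was also the longest such distance. It had 30 fragments against 2.1 expected, a fold of 10.0 (6.86 to 14.1), and an RNaseH1 fold of 6.13 (4.11 to 8.81) with the summits 80 bp apart. That expected number was the lowest of all 308, and whether the site is repeat sequence was not analysed here. The intergenic peak nearest LEMD3, an inner nuclear membrane protein, had 5.45 (3.25 to 8.65), and the 1 nearest GALP, a neuropeptide gene, had 5.12 (3.26 to 7.70). A peak at chr2:118310004-118310381 likewise had 5.12 (3.59 to 7.09). Lower folds were found at chr1:30524779-30525063, 4.33 (2.54 to 6.97), and at the peak nearest AP5M1, 4.31 (2.61 to 6.76). The first 4 were the only peaks outside genes with a fold of 5 or more, and with KMT2C they made up all 5 of the 308.

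Chromosome ends formed a small group of their own. Of the shared distal peaks, 8 lay beyond the outermost protein-coding or lncRNA gene of their chromosome, 3 of them on chromosome 10 and 1 each on chromosomes 2, 4, 5, 20 and 21. Those of chromosomes 21 and 5 were among the widest, 1055 bp at chr21:46698522-46699576 and 871 bp at chr5:10527-11397, with folds of 3.23 and 1.93. Their REXO4 folds ran from 1.93 to 3.65 and their RNaseH1 folds from 1.70 to 8.87. The highest of both was at chr2:10784-11312, where RNaseH1 reached 8.87 (6.77 to 11.4), the highest RNaseH1 fold of all 308 peaks. The 2 peaks barely touch there, with 1.51% of the REXO4 peak covered and the summits 627 bp apart. A set of 5 peaks lay at DUX4-like pseudogenes, the 3 of chromosome 10 among them and 2 on chromosome 4, with REXO4 folds of 1.96 to 2.35 and RNaseH1 folds of 1.70 to 2.69. Such ends hold long repeats present on several chromosomes, so the copy that the fragments came from is uncertain.

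Other noncoding classes were led by pseudogenes. A summit lay in or within 1 kb of a pseudogene for 20 (6.49%), against 11.3% of unshared distal REXO4 peaks and 5.12% of distal RNaseH1 peaks. By q these were led by DDX11L17 at a REXO4 fold of 3.28 (2.74 to 3.90), HERC2P2 at 2.86 (2.30 to 3.53), SEPTIN7P6, named above within KMT2C, and REXO1L3P at 1.51 (1.37 to 1.67). A microRNA gene was that close for 6 (1.95%), against 0 of the 265 unshared distal REXO4 peaks and 0.468% of distal RNaseH1 peaks. The share was nearer for shared REXO4 peaks at gene ends, 1.4%, and for all REXO4 peaks considered, 1.13%. The 6 were MIR124-3, a brain microRNA gene, at a REXO4 fold of 2.42 (1.89 to 3.07), MIR935 at 2.23, MIR193A at 2.13, MIR4785 at 2.12, MIR3180-2 at 1.86 and MIR4740 at 1.70. The snoRNA gene SNORD3D, a copy of the U3 RNA that takes part in rRNA processing, was the only 1 of its class (0.325%), at 3.0 (2.21 to 3.99). No shared distal peak lay by any of 149 spliceosomal snRNA genes, of which 61 (40.9%) had a distal RNaseH1 peak within 1 kb. Counted by peak, an snRNA gene was that close for 0 of all 1329 REXO4 peaks considered and 0.207% of distal RNaseH1 peaks.

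Gene lists gave the following counts, with 195 of 19821 protein-coding genes (0.984%) and 29 of 17904 lncRNA genes (0.162%) overlapped by a shared distal peak as the background. The same 2 shares were 43% and 15.4% for distal RNaseH1 peaks, and 0.661% and 0.117% for unshared distal REXO4 peaks. A longer gene also has more sequence over 1 kb from its ends. Of 933 genes of 300 kb or more, 18 (1.93%) were overlapped, among them KAZN, FRMD4A, MAGI2 and SHANK2, and 801 (85.9%) by a distal RNaseH1 peak. Unshared distal REXO4 peaks overlapped 32 (3.43%) of these long genes. Of 15 genes of common fragile sites, MAGI2 alone was overlapped, at a REXO4 fold of 2.60 (2.01 to 3.30), whereas 14 had a distal RNaseH1 peak. Of 517 zinc finger genes 4 (0.774%) were overlapped, ZNF316, ZNF362, ZNF704 and ZNF710. Unshared distal REXO4 peaks likewise overlapped 4 of them (0.774%).

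Across all 308 peaks the REXO4 fold had a median of 2.26 (interquartile range 1.94 to 2.82, lowest 1.46), against 1.98 for shared peaks at gene ends and 3.42 for unshared distal peaks. Expected fragments showed the reverse order, with medians of 32.9, 55.4 and 4.84. Across the 308 peaks fold and expected fragments had a Spearman correlation of -0.73, over regions of the same libraries and as a description. The fold has the expected number in its denominator, and a peak with few expected fragments needs a higher fold to be called. The order of the medians and the correlation are therefore partly fixed by the peak calling. A fold under 2 was found for 98 peaks (31.8%) and one of 4 or more for 20. The q was above 0.05 for 13 of the 308 (4.22%), against 3.76% of all REXO4 peaks considered.

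**Figure D3:**
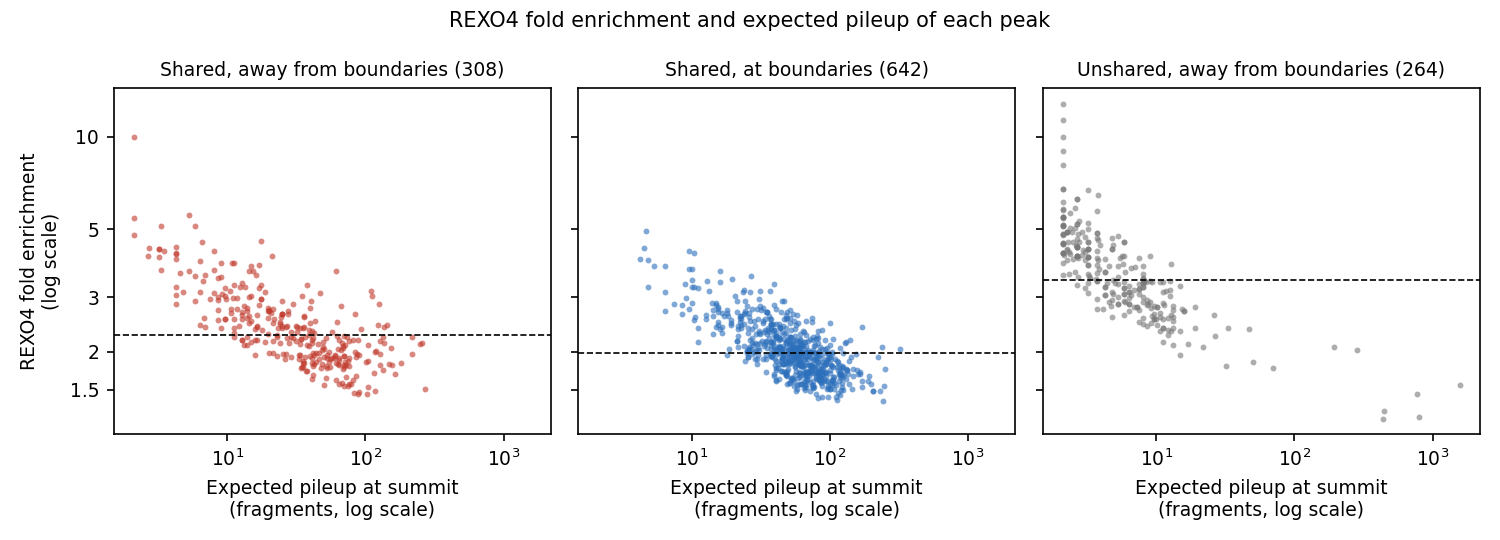
REXO4 fold enrichment (log scale) of each peak against the expected number of fragments at its summit (log scale) for 308 shared distal peaks (left), 642 shared peaks at gene ends (middle) and 264 unshared distal peaks (right, 1 peak without a recovered number left out). Dashed lines are the medians, 2.26, 1.98 and 3.42. In the left panel the fold falls as the expected number rises, which is partly fixed by the peak calling.

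The settings differed in their medians. Peaks within 1 kb of a start had a median REXO4 fold of 1.95 on 54.7 expected fragments, those deeper in genes 2.40 on 20.2 and those outside genes 2.66 on 17.7. The tRNA cluster had 2.44 on 144 and the 5S array 2.15 on 130, more expected fragments than any of the other settings by the median. RNaseH1 folds at the same peaks had medians of 6.40 in the tRNA cluster, 7.40 in the 5S array, 3.01 near starts, 3.16 deeper in genes and 3.39 outside them. By the median the 2 arrays had the highest RNaseH1 folds, while other peaks also reached such values, among them ELF2 at 6.16 and the peak at chr2:10784-11312 at 8.87.

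The fold of REXO4 at a peak varied with little relation to that of RNaseH1. The folds of the 2 proteins had a Spearman correlation of 0.13 across the 308 peaks and 0.15 over the 288 outside the 2 runs of 4 or more peaks, which hold the arrays and a peak in RHOU, whereas the expected fragments of the 2 lists had 0.94. These are descriptions over regions that share libraries, with no test. The RNaseH1 fold had a median of 3.28, against 3.12 for shared peaks at gene ends and 3.09 for distal RNaseH1 peaks without REXO4.

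**Figure D4:**
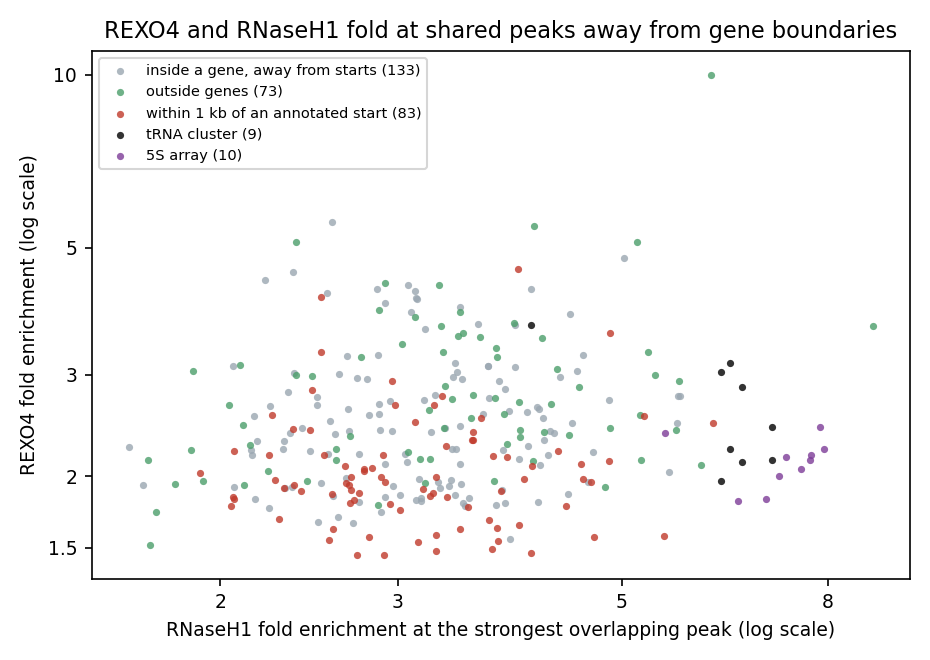
REXO4 fold enrichment against RNaseH1 fold enrichment (both log scale) at the 308 shared distal peaks, 1 point per peak, coloured by setting. The tRNA cluster and the 5S array stand to the right, at RNaseH1 folds of 4.06 to 7.94, within the REXO4 range of the other peaks, and the single peak at a REXO4 fold of 10.0 lies outside genes.

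The summits of the 2 proteins were close in most peaks. The REXO4 summit lay inside an RNaseH1 peak for 277 (89.9%), the nearest overlapping RNaseH1 summit was within 200 bp for 225 (73.1%), and the median distance was 102.5 bp, against 116 bp for shared peaks at gene ends. A single RNaseH1 peak was overlapped by 299 and 2 by 9. The REXO4 peaks were 285 to 1137 bp wide, with a median of 353.5 bp, against 369 bp at gene ends and 312 bp for unshared distal peaks.

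Peaks were mostly alone. Another shared distal peak lay within 100 kb for 44 (14.3%), of which 20 belonged to the 2 runs on chromosome 1 that hold the arrays, the second with a peak in RHOU at its far end. Chromosome 1 held 44 of the 308 peaks and 24 without these runs. Chromosome 19 had the most per length, 21 peaks or 0.359 per Mb, followed by chromosome 22 with 0.274 and chromosome 17 with 0.264, and chromosome X had 3. The shared distal peaks made up 25% of the REXO4 peaks of chromosome 19, 28.2% of those of chromosome 22 and 20.6% of those of chromosome 17, near the 23.2% of all considered.

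Many of the peaks lay not far beyond the distance threshold. The median distance from a gene end was 7437.5 bp, with 59 peaks (19.2%) between 1 and 2 kb and 7 beyond 100 kb. Just outside the threshold stood the peaks of LOC124905135 at 1005 bp with a REXO4 fold of 1.57 and ARSB at 1007 bp with 1.58. Just inside it, and so not counted, stood those by FOXCUT at 999 bp with 2.41, MCMBP at 984 bp with 1.54 and TSHZ1 at 976 bp with 1.87.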

How the data were processed

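Labels of 12 ChIP-seq and input libraries and 2 peak lists of hg38 were used. The submitters' processing notes name MACS2 2.1.0.20150731, HISAT2 2.2.1, Trim Galore 0.6.10, SAMtools 1.17, Cufflinks and deepTools 3.5.1, with no role given. The libraries and control behind each list, any merging of replicates and the calling threshold are not given in the sources. Peak names carry the word ChIPseq2, so a list may stem from 1 replicate. The ratio printed as fold enrichment is the authors' deposited value for each peak, as are the −log10 p and −log10 q. Peak scores of the authors' lists were not used.

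Computed here, with Python 3.11.15, NumPy 2.4.6, SciPy 1.17.1 and pandas 2.3.3, were all positions relative to genes, overlaps (at least 1 bp), shares and medians. Fragments and expected fragments were recovered from the deposited fold, read as (fragments + 1) / (expected + 1), and the Poisson p. They came out whole within 0.05 for 99.9% of 1460 REXO4 and 100% of 54623 RNaseH1 peaks. The steps were tested on simulated data. Genes came from a RefSeq table of GRCh38.p14, 58961 kept of 59792, with 831 left out that had no place on an assembled chromosome or stood out of order, as scaffold genes do. Starts and windows came from a RefSeq table of 35116 windows, which includes alternative starts and covers 72.1% of protein-coding and lncRNA genes. Fold was not compared between the lists.

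The peaks, gene lists and measures were chosen with earlier results of these data known, so all counts are descriptions. Peaks were named by rule: the 12 highest REXO4 folds, the 10 lowest q, the 8 highest RNaseH1 folds, the 6 widest, the genes with 2 or more peaks, the runs of 4 or more, up to 4 peaks by q at each other class of gene, and the 3 nearest the distance threshold on each side. One peak that this rule names is not reported here. The start loci, further host genes and motif counts were added after their values were seen.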

Additional observations from a re-analysis of the deposited data

How the results depend on the processing

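A set of 7 other settings was applied to the choice of peaks, 1 at a time, beside leaving out the 20 peaks of the tRNA and 5S runs, which was added after the data were seen. Over 7 results and 8 settings, 50 values stayed within the 95% interval of the value reported, or within 1.5 times the count reported, and 6 moved. The number of peaks ran from 233 (gene ends at over 2500 bp) to 402 (over 500 bp), with 274 when at least 0.5 of the REXO4 peak had to be covered by 1 RNaseH1 peak, 277 with the REXO4 summit inside an RNaseH1 peak, 258 at a q of 0.01 or less in both lists, 264 with genes of every class as boundaries and 347 with chromosome 21 below 9 Mb. The share inside a gene, 70.1%, was 78.4% with genes of every class as boundaries and 62.2% with chromosome 21 below 9 Mb. The share with another peak within 100 kb, 14.3%, was 6.44% with genes of every class, which drops the tRNA and 5S peaks, 23.6% with chromosome 21 below 9 Mb and 8.33% without the 2 runs. The share within 1 kb of an annotated start, 27.9%, was 37.6% with gene ends at over 500 bp, and 24.7 to 32.7% under the other settings. Median REXO4 folds stayed at 2.21 to 2.36 and median RNaseH1 folds at 3.21 to 3.35. No paired analysis was possible because each peak list holds 1 value per peak and none per library, so no replicate could be paired or left out. Depth per library was not analysed here, and a peak missing from the shorter REXO4 list may only lie below its calling threshold.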

Other observations

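Small gene families were looked at after their names had been seen among the hosts, so they carry no weight as support. Over all 19821 protein-coding genes, 0.984% were overlapped by a shared distal peak and 43% by a distal RNaseH1 peak. All 3 SHANK genes, which encode scaffolds of the postsynaptic density, held a shared distal peak, at REXO4 folds of 2.64 (2.31 to 3.01) in SHANK1, 2.74 (1.81 to 3.99) in SHANK2 and 2.22 (1.79 to 2.71) in SHANK3. The 3 intervals overlap. Of the 2 with a long distance to gene ends, SHANK1 lay 24627 bp and SHANK2 107046 bp from one, while SHANK3 lay 1826 bp from one. All 3 HIVEP genes, which encode large zinc finger factors, held one as well, at 2.93 in HIVEP1, 2.66 in HIVEP2 and 2.23 and 2.39 in HIVEP3. No unshared distal REXO4 peak and no shared REXO4 peak at a gene end was counted in either family, and they held 27 and 19 distal RNaseH1 peaks. Of 42 ZBTB genes, a family of zinc finger factors, 4 held a shared distal peak and 21 a distal RNaseH1 peak. A shared REXO4 peak at a gene end was counted for 3 of the 42 and an unshared distal one for 0. In ZBTB14, ZBTB38, ZBTB46 and ZBTB7A alike the shared distal peak overlapped the window of an annotated start. Their REXO4 folds were 1.79 (1.45 to 2.19), 1.90 (1.58 to 2.27), 4.10 (3.31 to 5.03) and 1.49 (1.28 to 1.73) in that order, so ZBTB46 stood above the others by its interval.

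A pair of intergenic peaks on chromosome X lay 4260 bp apart, the nearest gene being PLS3, an actin-bundling protein gene, at 81927 bp. Their REXO4 folds were close, 1.96 (1.73 to 2.22) and 2.22 (1.90 to 2.59), while their RNaseH1 folds were 3.74 and 1.87. With 1 other peak they made up all 3 shared distal peaks of that chromosome. Expected REXO4 fragments were 73.2 at 1 peak of the pair and 128 at the other, against a median of 17.7 outside genes. Whether this site is repeat sequence was not analysed here.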
